A study of Sus scrofa with 21 samples.

Results

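The antioxidant, thioredoxin and glutathione genes of the pig were examined in whole blood of 10 DD pigs and 11 LW pigs, with 1 array per pig. DD pigs are inbred SLAdd minipigs, homozygous at the SLA locus (the swine major histocompatibility complex), and LW pigs are conventional Large White animals that served as controls. All of them were 60 days old and had free access to a standard diet. The DD pigs came from 5 litters and the LW pigs from 6. Every DD pig, and every LW pig but LW 2, had a sibling among the arrays. The DD line is a single closed herd. Members were all genes whose name on the array begins with PRDX, GPX, SOD and a digit, TXN, GST and a letter, MGST, GLRX, GCLC, GCLM, SRXN, HMOX or NQO, or is CAT, GSR, GSS, ATOX1, CCS, NFE2L2 or KEAP1. As the names are written in the scanner files, in capitals, this gave 54 of 48527 distinct names, covered by 176 probes. ATOX1 was named in lower case (atox1) and was therefore outside the 54. It is described with its own values, together with the other lower-case names of the same families. After the probes with the lowest mean were removed, 51 members were tested. GPX5, GSTA1 and SOD3 had no probe left.

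Cells turn superoxide into hydrogen peroxide with the superoxide dismutases, and remove the peroxide with catalase, the glutathione peroxidases and the peroxiredoxins. Thioredoxin and glutathione carry the reducing power for the peroxiredoxins and glutathione peroxidases, and NADPH restores both of them through their reductases. The transcription factor NRF2 (gene NFE2L2), held in check by KEAP1, switches on many of these genes, among them HMOX1 and NQO1. Red cells, which make up most of the cells of blood, rely on peroxiredoxin 2, catalase and glutathione peroxidase 1 to protect haemoglobin.

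The array measures each gene with probes of 60 bases, and the probe sequences below are those on which the main results turn. They are given as the array files hold them, 5′ to 3′. The probes of CCS and atox1 are shown because they carried the largest rise among the members and the fall of the other copper chaperone.

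CCS: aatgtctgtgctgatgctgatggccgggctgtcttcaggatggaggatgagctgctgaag

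atox1: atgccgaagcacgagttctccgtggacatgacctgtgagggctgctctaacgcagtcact

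The pair of PRDX1 probes is shown because they overlap, with the shared run of 45 bases in capitals, so that their near-identical differences are not independent measurements. Of the 176 probes of the members, 67 share at least 20 bases with another probe of their gene, among them probes of CAT, GPX1, GPX4, MGST1 and PRDX4, so that counts of agreeing probes are not counts of independent measurements.

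PRDX1, first probe: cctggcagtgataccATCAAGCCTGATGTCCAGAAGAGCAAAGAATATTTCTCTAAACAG

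PRDX1, other probe: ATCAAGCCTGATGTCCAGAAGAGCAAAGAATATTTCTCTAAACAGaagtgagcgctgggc

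The next pair carries the name of the same gene, once in capitals and once in lower case, and moved in opposite directions between the breeds. These sequences share no run longer than 6 bases on the same strand.

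PRDX4: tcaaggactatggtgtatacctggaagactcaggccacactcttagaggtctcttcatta

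Prdx4: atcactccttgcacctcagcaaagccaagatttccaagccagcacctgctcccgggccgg

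The last pairs are shown because the probes of a pair are complementary to each other, so that they cannot both read the same strand of the transcript. Capitals mark the complementary run, of 59 bases for TXN and of 55 bases for NQO1.

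TXN, first probe: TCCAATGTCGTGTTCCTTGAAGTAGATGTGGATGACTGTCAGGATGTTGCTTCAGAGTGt

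TXN, opposite strand: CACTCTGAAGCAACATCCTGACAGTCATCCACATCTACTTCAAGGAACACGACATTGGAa

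NQO1: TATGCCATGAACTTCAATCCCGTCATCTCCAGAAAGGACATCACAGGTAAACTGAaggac

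nqo1, opposite strand: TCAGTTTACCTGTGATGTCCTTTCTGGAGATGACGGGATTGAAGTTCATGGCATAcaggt

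Some features of the arrays move with the breed and stand beside the results that follow. The arrays of DD pigs were dimmer before normalization, with a log2 75th percentile of the processed signal from 6.56 to 8.49 (median 7.64), against 7.37 to 8.62 (median 8.41) in LW pigs. The gap was widest on chip 3, where the means were 7.09 and 8.36. The share of probes well above background ran from 44.7% to 61.0% in DD pigs and from 53.0% to 63.8% in LW pigs. The blood label was borne out by its markers: HBB, AHSP and SLC4A1 of red cells, CD3E, CD3D and CD3G of T cells, and S100A8, S100A9 and S100A12 of neutrophils were well above background on every array. Of 29 erythroid markers listed, 14 were tested, with 3 called higher in DD pigs and 0 lower (21.4%, where 21.0% of all features were called). Their mean level ran from 8.92 to 10.12 in DD pigs and from 8.59 to 9.89 in LW pigs. Of 10 T cell markers tested, 4 were called lower in DD pigs (40%). Their mean level ran from 7.29 to 8.67 in DD pigs and from 7.75 to 8.81 in LW pigs. Of the other cell types, 1 of 6 monocyte and 1 of 7 platelet markers were called, both lower in DD pigs. None of 9 neutrophil, 6 B cell and 7 NK and cytotoxic markers was called. Values are log2 intensities of whole blood, in which fewer cells of a type and less RNA per cell cannot be told apart.

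The comparison between the breeds asks which of these genes were expressed at another level in the blood of the minipigs. Of the 51 members tested, 8 passed an adjusted p of 0.05 in limma. CCS, TXNL4B and GPX1 were higher in DD pigs, and HMOX1, PRDX4, PRDX1, GLRX2 and MGST1 were lower. This is 15.7% of the members, where 21.0% of all 35578 features were called. Whether these shares differ was not tested. At an unadjusted p under 0.05 in limma, 15 of the 51 members passed, and 13058 of the 35578 features (36.7%). By direction, the 3 higher members compare with 11.4% of all features called higher, and the 5 lower members with 9.57% called lower. The median log2 difference (DD minus LW) of the members was -0.06, next to -0.04 over all features. Differences were small: 48 of the 51 lay within 0.5 of zero on the log2 scale, and for 47 the 95% confidence interval lay inside a change of 1 in either direction. In no member did the values of the breeds stay fully apart, as they did in 0.382% of all features.

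**Figure D1:**
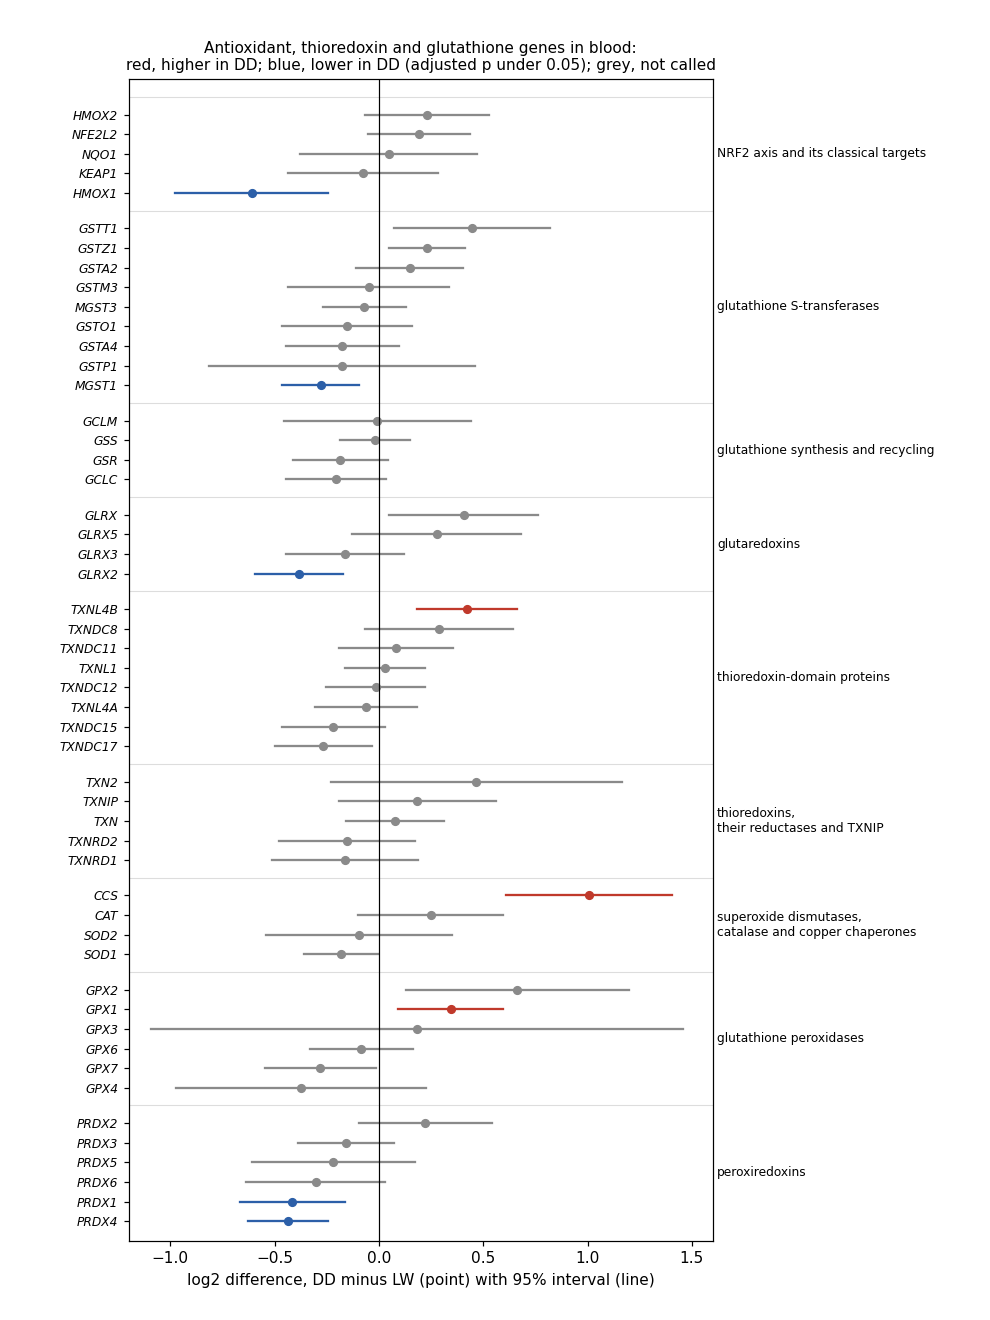
Log2 difference between DD and LW pigs (horizontal axis, point) with its 95% confidence interval (line) for the 51 tested members, grouped by role. The 3 members called higher in DD pigs are red, the 5 called lower are blue, and the interval of CCS lies farthest from zero.

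CCS, the chaperone that loads copper into superoxide dismutase 1, had the largest difference of all members. RefSeq places it on chromosome 2 of the Sscrofa11.1 assembly, at 5819471 to 5833263. Its values ran from 10.93 to 12.06 in DD pigs (median 11.42) and from 9.01 to 11.18 in LW pigs (median 10.54). Of the 10 DD pigs, 8 lay above every LW pig, and 9 of the 11 LW pigs lay below every DD pig. The log2 difference was 1.00 (SE 0.19), a 2.01-fold higher level, with an adjusted p of 0.00186. The litter means did not overlap either, with 11.15 to 11.86 over the 5 DD litters and 9.92 to 10.97 over the 6 LW litters. Such a separation of litter means was found in 4.16% of all features, and besides CCS it held for PRDX4 and MGST1 among the members.

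The dismutases and catalase were not called in the reported fit. SOD1, the cytosolic copper and zinc superoxide dismutase, ran from 10.26 to 10.93 in DD pigs (median 10.67) and from 10.50 to 11.15 in LW pigs (median 10.83), and its log2 difference was -0.18 (SE 0.08, adjusted p = 0.124). SOD1 was called at -0.32 when read by its brightest probe (adjusted p = 0.0215), and at -0.18 with a background offset of 50 (adjusted p = 0.0423). SOD2, the manganese enzyme of mitochondria, differed by -0.09 (SE 0.22, adjusted p = 0.777), and the breeds overlapped almost fully. CAT, catalase, had 9 probes that all read higher in DD pigs, and its mean difference was 0.25 (SE 0.17, adjusted p = 0.290). The 95% confidence interval of CAT ran from -0.10 to 0.60. SOD3, the extracellular dismutase, was not well above background on any array.

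ATOX1, the chaperone that hands copper to the ATPases of the secretory pathway, moved the other way from CCS. Its probe, atox1, was well above background on all 21 arrays. In DD pigs the values ran from 9.12 to 11.65 (median 10.67) and in LW pigs from 9.79 to 13.72 (median 13.02). Of the 11 LW pigs, 7 lay above every DD pig, and 3 DD pigs lay below every LW pig. The log2 difference was -1.85 (SE 0.41), a 3.61-fold lower level in DD pigs, with an adjusted p of 0.00639. The spread was wide, with an SD of 0.86 in DD pigs and 1.42 in LW pigs, but the litter means stayed apart (9.26 to 11.23 over DD litters and 11.40 to 13.40 over LW litters). RefSeq places ATOX1 on chromosome 16 of Sscrofa11.1, from 71299321 to 71314598. It rests on a single probe.

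Among the 6 peroxiredoxins, 5 had a negative difference, and 2 of them passed the test. Over all 35578 features, 19505 differences were negative and 9.57% were called lower. Whether the peroxiredoxins depart from these shares was not tested. PRDX4, the peroxiredoxin of the endoplasmic reticulum, ran from 9.25 to 9.79 in DD pigs (median 9.49) and from 9.57 to 10.19 in LW pigs (median 9.97). Of the 11 LW pigs, 10 lay above every DD pig. Its log2 difference was -0.43 (SE 0.09, adjusted p = 0.00437), and each of its 5 probes was called by itself, with differences from -0.48 to -0.41. The gene is on chromosome X (Sscrofa11.1, 19800153 to 19819575). The lower-case probe Prdx4 gave the opposite result: it was higher in DD pigs by 0.81 (SE 0.27, adjusted p = 0.0389), with a range from 11.94 to 16.05 in DD pigs and from 10.85 to 14.60 in LW pigs. When it was averaged with the others, the difference of PRDX4 shrank to -0.23 (adjusted p = 0.0438). Which transcript that probe reads was not tested.

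PRDX1, a cytosolic peroxiredoxin, ran from 10.72 to 11.97 in DD pigs (median 11.28) and from 11.26 to 12.26 in LW pigs (median 11.80). It was lower in DD pigs, with a log2 difference of -0.42 (SE 0.12, adjusted p = 0.0244) and 5 DD pigs below every LW pig. PRDX2, the peroxiredoxin that red cells hold in bulk, ran from 15.57 to 16.42 in DD pigs (median 15.92) and from 15.06 to 16.47 in LW pigs (median 15.63), with a difference of 0.22 (SE 0.15, adjusted p = 0.307). It was the sole peroxiredoxin with a positive difference, and its breeds overlapped over most of their range. PRDX3 and PRDX5, which work in mitochondria, and PRDX6 differed by -0.16, -0.22 and -0.30, with adjusted p of 0.307, 0.417 and 0.174.

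GPX1, the cytosolic glutathione peroxidase, was the third member called higher. It ran from 16.27 to 17.08 in DD pigs (median 16.71) and from 15.30 to 17.04 in LW pigs (median 16.54), so that the breeds overlapped over most of the DD range. The difference was 0.34 (SE 0.12, adjusted p = 0.0473), close to the threshold and called in 5 of 21 fits that left out 1 pig, and all 6 probes read higher in DD pigs. With arrays scaled to their 75th percentile it was 0.78 (adjusted p = 0.0160), with the brightest probe 0.21 (adjusted p = 0.0462), and with no litter block it was 0.34 and not called (adjusted p = 0.0695). The 3 lowest values of LW pigs, from 15.30 to 15.86, were the 3 LW pigs of chip 3. The gene is on chromosome 13 (Sscrofa11.1, 31916269 to 31917337).

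The other glutathione peroxidases did not pass the test. GPX2, known from the gut epithelium, had the largest difference among members that were not called, 0.66 (SE 0.26, adjusted p = 0.0688). It ran from 9.01 to 11.11 in DD pigs and from 8.24 to 11.39 in LW pigs, and within chips 1, 2 and 3 it differed by 0.12, 0.19 and 1.90. GPX4, which reduces lipid peroxides in membranes, differed by -0.37 (SE 0.29, adjusted p = 0.3605), and all 5 of its probes read lower in DD pigs, of which a pair share all 60 bases and another pair 46. GPX3, the plasma enzyme, had the widest spread of the group, from 5.37 to 11.90 in LW pigs alone, and its difference of 0.18 had an SE of 0.61. GPX7 was above background on no DD array and on 7 of 11 LW arrays, which gives a level at least 1.19-fold higher in LW pigs (adjusted p = 0.117).

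None of the 5 thioredoxins, thioredoxin reductases and TXNIP was called, and at an unadjusted p under 0.05 limma gave 0 as well. TXN, the cytosolic thioredoxin, had a difference of 0.08 (SE 0.11, adjusted p = 0.655) and a 95% confidence interval from -0.16 to 0.31. TXNIP, which binds and inhibits thioredoxin, differed by 0.18 (SE 0.18, adjusted p = 0.483) over 11 probes. TXNRD1 and TXNRD2, the cytosolic and mitochondrial reductases, differed by -0.16 and -0.15, with adjusted p of 0.509 and 0.505. The mitochondrial thioredoxin TXN2 differed by 0.47 (SE 0.34, adjusted p = 0.325), and only 1 DD array and 1 LW array read it above background.

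Of 8 members with thioredoxin-like domains, TXNL4B was called. It is a relative of the spliceosome protein TXNL4A and is not known as an antioxidant enzyme. RefSeq places a gene of this symbol on chromosome 6 of Sscrofa11.1, from 14985063 to 14998077, and lists it as a long non-coding RNA. TXNL4B ran from 8.44 to 9.06 in DD pigs (median 8.90) and from 7.67 to 8.89 in LW pigs (median 8.39), with 5 DD pigs above every LW pig. The difference was 0.42 (SE 0.12, adjusted p = 0.0191), from a single probe. TXNL4A itself differed by -0.06 (SE 0.12, adjusted p = 0.736). TXNDC17, a small cytosolic oxidoreductase, differed by -0.27 (SE 0.11, adjusted p = 0.0899).

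Glutaredoxins use glutathione to reduce protein thiols. GLRX2, found in mitochondria and the nucleus, ran from 8.93 to 9.65 in DD pigs (median 9.17) and from 9.34 to 10.05 in LW pigs (median 9.64). It was called lower in DD pigs, with a difference of -0.38 (SE 0.10, adjusted p = 0.0167) from 1 probe, and 6 DD pigs lay below every LW pig. GLRX, the cytosolic glutaredoxin, had a positive difference of 0.41 (SE 0.17, adjusted p = 0.0938), and its 4 probes spread from 0.06 to 0.76. GLRX5, which serves iron-sulphur cluster assembly and is active in red cell precursors, differed by 0.28 (SE 0.20, adjusted p = 0.317). The lower-case probe glrx5 had the opposite sign, at -0.33 (SE 0.21, adjusted p = 0.264). It was the brighter of them, with means of 11.18 in DD pigs and 11.53 in LW pigs, against 10.30 and 10.04.

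The 4 genes of glutathione synthesis and recycling gave no call and 0 unadjusted p under 0.05 in limma. GCLC and GCLM, the subunits of the rate-limiting ligase, differed by -0.21 (adjusted p = 0.199) and -0.01 (adjusted p = 0.983). GCLC was near the floor, above background on at most 1 DD and 5 LW arrays. GCLM was above background on 7 DD and 11 LW arrays. GSS, glutathione synthetase, differed by -0.02 with an SE of 0.08, and its 95% confidence interval, from -0.19 to 0.15, was the narrowest of the members. GSR, the reductase that regenerates glutathione, differed by -0.19 (SE 0.11, adjusted p = 0.222). Its probe was above background on 6 DD and 11 LW arrays.

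Glutathione S-transferases couple glutathione to foreign and oxidised molecules. Of the 9 tested, MGST1, a transferase of the endoplasmic reticulum and mitochondria, was called. It ran from 9.66 to 10.32 in DD pigs (median 10.01) and from 10.03 to 10.37 in LW pigs (median 10.24), with 5 DD pigs below every LW pig. The difference was -0.28 (SE 0.09, adjusted p = 0.0326), and all 8 probes read lower, 3 of them called by themselves. GSTP1 differed by -0.18 with an SE of 0.31 (adjusted p = 0.705). GSTT1 was dim, above background on at most 4 DD and 3 LW arrays, and its difference of 0.44 (SE 0.18) did not pass (adjusted p = 0.0796). GSTA1 and GSTA2 were above background on no LW array and on 1 DD array each, so that no fold is given. GSTA1 was not tested and GSTA2 was not called (adjusted p = 0.402). TXNDC8, a thioredoxin-domain protein of the testis, was above background on no array.

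The clearest difference of the families came from another lower-case name. The probe gstk1, named for the kappa class transferase of mitochondria and peroxisomes, read from 8.96 to 9.79 in DD pigs (median 9.30) and from 10.33 to 11.00 in LW pigs (median 10.44). All 10 DD pigs lay below all 11 LW pigs. The log2 difference was -1.24 (SE 0.11), a 2.36-fold lower level in DD pigs, with an adjusted p of 3.618e-07. The difference was of similar size on each chip, at -1.35, -1.01 and -1.41. RefSeq places GSTK1 on chromosome 18 of Sscrofa11.1, from 6992623 to 6999068. It rests on 1 probe, which was above background on all arrays.

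In all, 26 probes carried a member-like name in another case, and 24 of them were tested. Of the 26 names, 18 were another spelling of a member, and the others were atox1, gstk1, Txnrd3, mgst2, Gpx8, txndc9, Txndc16 and prdxdd1p. Among the 18, the Ccs probe had the same sequence as a CCS probe and was higher by 0.83 (adjusted p = 0.00161). Txndc15 was higher in DD pigs by 0.56 (adjusted p = 0.0408), and within chips 1, 2 and 3 it differed by -0.05, 0.41 and 1.46. The probe named TXNDC15 was at -0.22 (adjusted p = 0.1845), and glrx3 was at -0.35 (adjusted p = 0.0381). The member GLRX3 was at -0.16 and not called (adjusted p = 0.396). It averaged a bright probe at -0.35 (adjusted p = 0.0371), which shares 29 bases with glrx3, and a dim probe at 0.02. The dim probe was above background on 1 DD and 1 LW array. Of the others, Txnrd3, the third thioredoxin reductase, was lower in DD pigs, at -0.70 (SE 0.20, adjusted p = 0.0234), and was above background on 4 DD and 10 LW arrays. The other 5 of these were not called, with differences from -0.37 to 0.33. With names read without regard to case, 11 of 59 features were called, against 20.9% of all features, and the 3 additional calls were ATOX1, GSTK1 and TXNRD3. SRXN1, the enzyme that repairs over-oxidised peroxiredoxins, was reached through accessions, and its difference of 0.47 (SE 0.21) was not called (adjusted p = 0.103).

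Of the NRF2 axis, HMOX1 was called. This inducible heme oxygenase, which breaks down heme in macrophages and other cells, ran from 6.38 to 7.80 in DD pigs (median 6.91) and from 6.90 to 8.21 in LW pigs (median 7.56), with 5 DD pigs below every LW pig. The difference was -0.61 (SE 0.18, adjusted p = 0.0242). Without chip 2 it was -0.19 and not called (adjusted p = 0.489). All 3 probes read lower, from -0.86 to -0.39, and the dimmest of them was above background on 3 DD and 8 LW arrays. NFE2L2 differed by 0.19 (SE 0.12, adjusted p = 0.246) and KEAP1 by -0.08 (SE 0.17, adjusted p = 0.774), and HMOX2, the constitutive oxygenase, by 0.23 (SE 0.14, adjusted p = 0.253). NQO1, the quinone reductase often read as an NRF2 target, had a difference of 0.05 (SE 0.20, adjusted p = 0.890), which averaged probes of opposite sign.

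**Figure D2:**
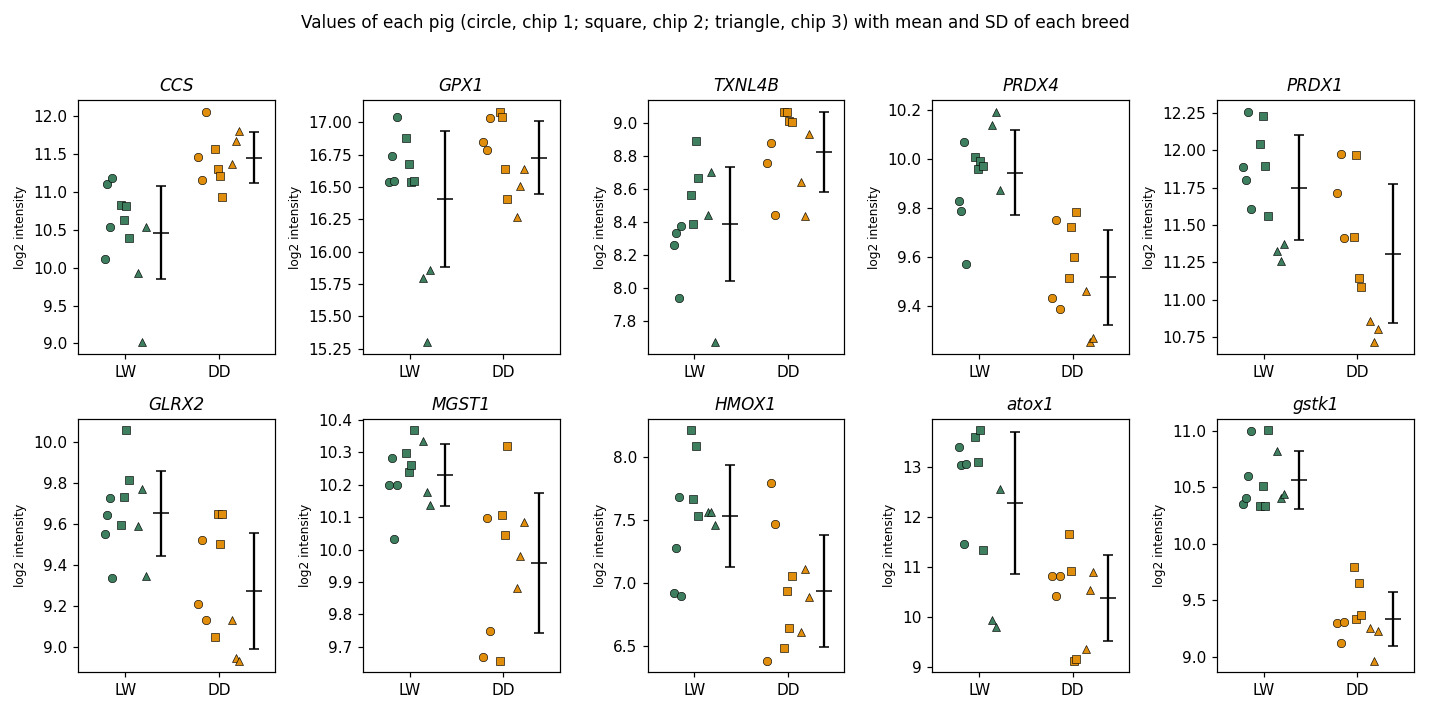
Log2 intensity of each pig (vertical axes, 1 panel per gene) for the 8 called members and for atox1 and gstk1, with LW pigs left and DD pigs right, the chip shown by the symbol, and the mean and SD of each breed at the side. Values of gstk1 do not overlap between the breeds, those of CCS and PRDX4 overlap in a few pigs, and the lowest GPX1 values are the LW pigs of chip 3.

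The differences were also read within each chip, since chip 3 stood apart. CCS was higher in DD pigs on all 3 chips, by 0.82, 0.58 and 1.79. GPX1 was higher by 0.18, 0.13 and 0.82, and the mean of the erythroid list by 0.30, 0.21 and 0.86 on the same chips. TXNL4B was even, at 0.46, 0.41 and 0.40, and so was MGST1, at -0.34, -0.26 and -0.24. HMOX1 was the called member whose sign was not kept, with 0.02 on chip 1, -1.10 on chip 2 and -0.66 on chip 3. The atox1 probe was lower on all chips, at -2.05, -2.72 and -0.50. Of the 51 members, 20 kept one sign on all chips (39.2%, against 44.4% of all features). The difference was largest in absolute size on chip 3 in 29 members (56.9%), against 65% of all features. This held for 4 of the 8 called members.

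**Figure D3:**
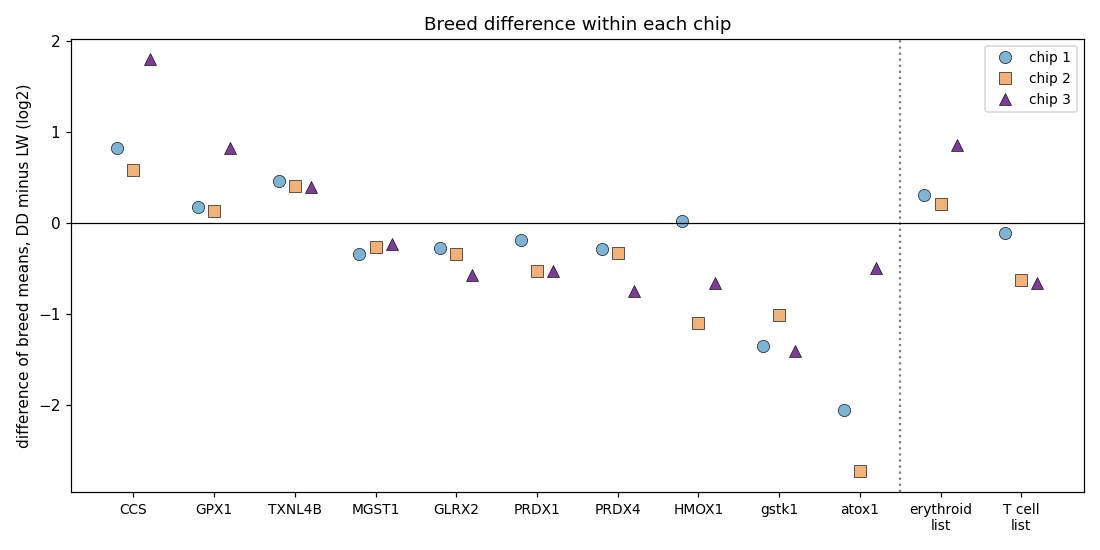
Difference of the breed means within each chip (vertical axis, log2, DD minus LW) for the 8 called members, gstk1, atox1 and, right of the dotted line, the mean of the erythroid and T cell markers. The CCS and GPX1 points of chip 3 (1.79 and 0.82) lie above those of chips 1 and 2, as does the erythroid list (0.86). Over all features, the difference was largest in absolute size on chip 3 in 65%.

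The members were no longer called in fits without chip 3 or with the measures that move with the breed, though some differences stayed about as large. Without chip 3, 0 of 51 members passed in limma, with 10 at an unadjusted p under 0.05, and 1.51% of all features passed. With array brightness as a covariate 0 members passed (8 unadjusted, and 2.19% of all features), and with the erythroid level 0 passed (9 unadjusted, and 2.85% of all features). Without chip 1, 5 members passed (22.4% of all features). Without chip 2, 4 passed (14.2% of all features). Without a chip term 3 passed (5.42% of all features). A fit on the litter means called CCS alone, where 2.72% of all features passed. When each gene was read by its brightest probe, 12 members passed (22.4% of all features), and those not among the 8 were GPX2, GLRX, GLRX3, NQO1 and SOD1. CCS kept its direction but fell to 0.70 without chip 3 (adjusted p = 0.0926), to 0.65 with brightness (adjusted p = 0.187) and to 0.65 with the erythroid level (adjusted p = 0.0587). GPX1 fell to 0.14, 0.14 and 0.15 in the same fits, PRDX4 was at -0.31, -0.24 and -0.29, and MGST1 was at -0.29, -0.28 and -0.27. TXNL4B kept its size, at 0.42, 0.48 and 0.45 (adjusted p = 0.118, 0.109 and 0.0843). GLRX2 was at -0.30, -0.19 and -0.23, PRDX1 at -0.40, -0.17 and -0.24, and HMOX1 at -0.56, -0.30 and -0.56. The gstk1 probe was called in all of them, at -1.16, -1.32 and -1.32, and so was atox1, at -2.53, -2.46 and -2.23. Without chip 2, however, atox1 was at -1.18 with an adjusted p of 0.0559. What part brightness or red cell RNA has in the differences of the members was not tested.

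**Figure D4:**
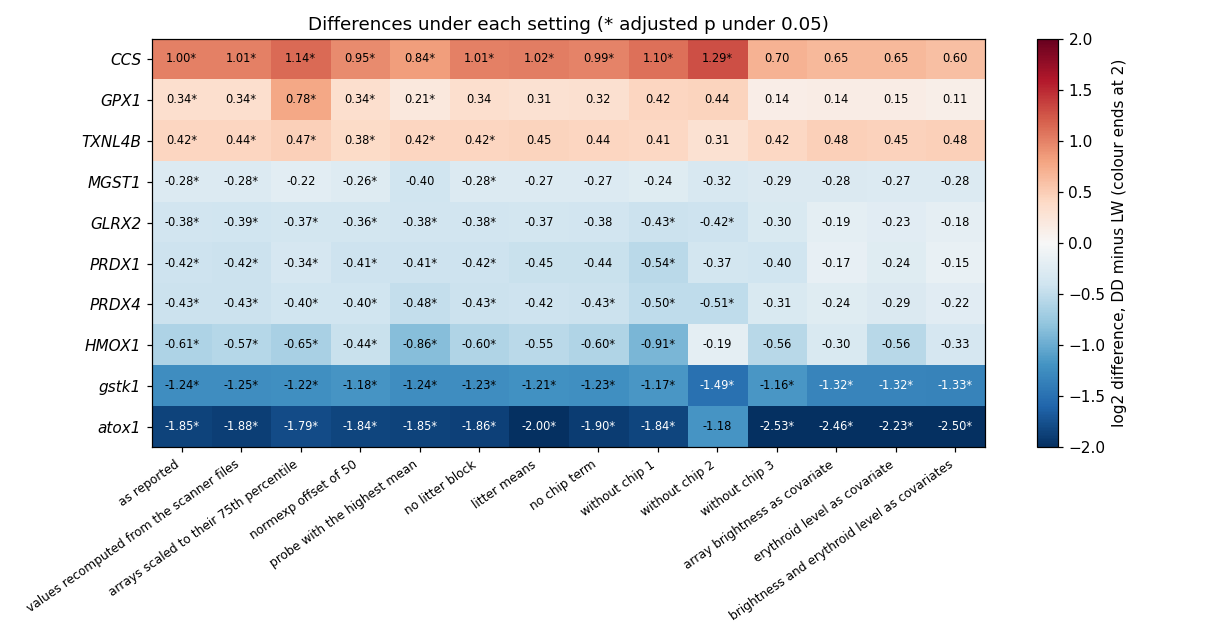
Log2 differences (numbers and colour, DD minus LW) of the 8 called members, gstk1 and atox1 (lines) under the reported fit and 13 alternatives (columns), with a star where the adjusted p was under 0.05. The stars of all 8 members are gone without chip 3 and with either covariate, while those of gstk1 stay in every column and atox1 lacks its star without chip 2.

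Several members were measured by more than 1 probe, which shows how far a gene's value depends on the probe. Of 36 members with at least 2 kept probes, 11 had all probes higher in DD pigs, 13 had all lower and 12 had both signs. Tested one by one, 28 of the 167 kept probes were called, 12 higher and 16 lower, where 21.7% of all kept probes of the array were called. NQO1 was split: the probe shown above was higher in DD pigs by 0.89 (SE 0.27, adjusted p = 0.0264), and the others were at -0.36 and -0.40, neither of them called. These others were dim, above background on 5 and 7 DD arrays and on 9 and 11 LW arrays. The probe shown was above background on 10 DD and 11 LW arrays, with means of 9.11 in DD pigs and 8.24 in LW pigs. The probe complementary to it, nqo1, was not above background on any array. TXN was not called on either strand, at 0.09 and 0.14 for the probes shown above (adjusted p = 0.581 and 0.454). The second was far dimmer, with means of 5.73 in DD pigs and 5.58 in LW pigs, against 11.77 and 11.69. It was above background on 9 DD and 11 LW arrays. For HMOX2 the probes gave -0.12 and 0.58, and for SOD2 the 8 probes ran from -0.51 to 0.11.

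**Figure D5:**
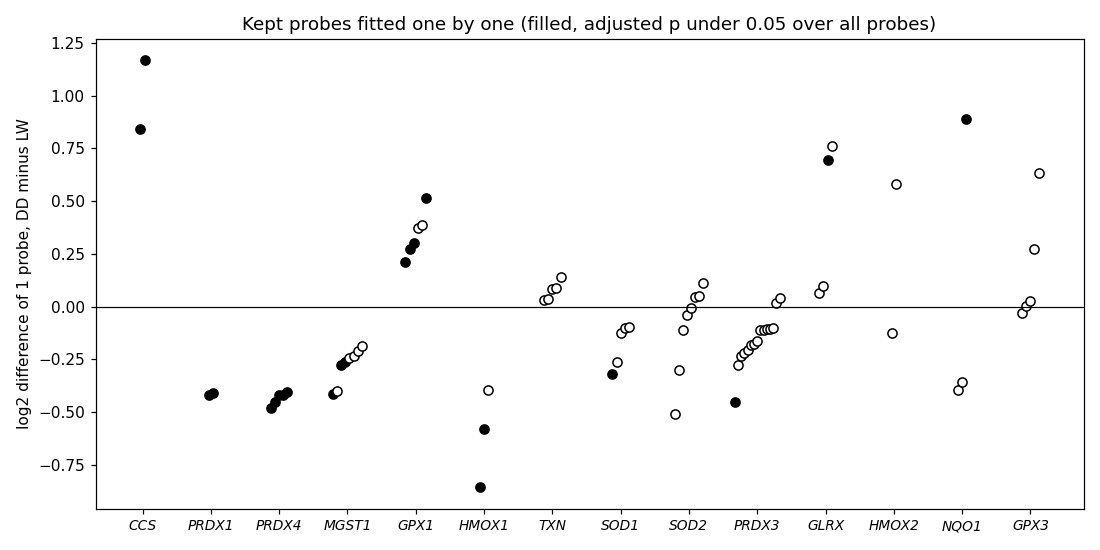
Log2 difference of each kept probe (vertical axis, DD minus LW) for 14 members, filled where the adjusted p over all probes was under 0.05. The probes of PRDX1, PRDX4 and CCS lie close together on 1 side of zero, and those of NQO1 and HMOX2 lie on both sides.

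Neighbouring pathways were read from a list of 72 genes of which 39 were tested. Names were matched as spelled, so that a name in another case was left out. Of these, 6 were called (15.4%), 2 higher and 4 lower in DD pigs, where 21.0% of all features were called. SCO1, a copper chaperone of cytochrome oxidase, was lower, with a difference of -0.65 (SE 0.11, adjusted p = 0.000893), and it was the 1 call among 6 copper handling genes. The copper importer SLC31A1 (-0.09) and the copper ATPase ATP7A (0.12) were not called. LANCL1, a glutathione-binding protein, was lower, at -0.89 (SE 0.17, adjusted p = 0.00205), and SLC7A11, the cystine importer, was at -0.71 (SE 0.19, adjusted p = 0.0166). Their levels were low, with means in DD and LW pigs of 5.07 and 5.98 for LANCL1 and of 5.25 and 5.94 for SLC7A11. MSRB2, a mitochondrial methionine sulfoxide reductase, was at -0.43 (SE 0.11, adjusted p = 0.0116). SESN3, a sestrin, and MT1A, a metallothionein, were higher, by 0.41 (adjusted p = 0.0467) and 0.71 (adjusted p = 0.0259). Their means in DD and LW pigs were 5.91 and 5.52 for SESN3 and 5.76 and 5.03 for MT1A. The member GSR, with means of 5.28 and 5.47, was above background on 6 DD and 11 LW arrays. None of the 6 NADPH supply genes, 6 genes of selenoprotein synthesis, 4 NRF2 partners and 3 genes of the phagocyte NADPH oxidase was called. At an unadjusted p under 0.05 in limma, 2, 2, 0 and 2 of them passed, where 36.7% of all features did.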

How the data were processed

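Total RNA from whole blood was labelled with Cy3 and hybridised to a one-colour Agilent 60-base-probe pig array on 3 chips (3 or 4 arrays of each breed per chip). The scanner files, made with Agilent Feature Extraction 10.7.3.1 per the labels, hold intensities as deposited, not normalized between arrays. The log2 matrix was made by the authors, who corrected the background by normexp, took log2 and quantile normalized after removing outlier arrays and reported a technical bias of the third chip. The main values were these deposited log2 values. Recomputing them from the intensities gave correlations from 0.998 to 0.999 per array.

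Of 60306 probes that are no controls, the dimmest 25% by mean level were dropped and 45228 kept. Kept probes sharing a gene name in the scanner files were averaged, and 1498 probes named only "gi" were kept apart, which gave 35578 features. Averaging can hide probes of opposite sign, and quantile normalization assumes that arrays share one distribution. Differences (DD minus LW) were fitted in limma 3.58.1 (R 4.3.3, statmod 1.5.0), in which breed and chip were fixed effects and litter a random block (consensus correlation -0.108), as in the study's methods, with eBayes and Benjamini-Hochberg adjustment over all features and an adjusted p of 0.05. Litter and chip came from the study's list of animals. Because the consensus correlation was negative, the litter block treated siblings as less alike than other pigs of their breed. It therefore made no allowance for siblings being alike, and it narrowed the error of a breed difference relative to a fit with no block. With no litter block, 7 members and 5106 features were called, against 8 and 7459 with it. On litter means, 1 member and 969 features were called. With values simulated over 35578 features, 27 of 100 log2 changes of 0.5 and 85 of 100 changes of 1 were recovered, 0 with the wrong sign. Of the unchanged features, 7 were called. Only 100 features were given each change, against 7459 called in the data, so that the adjusted threshold was stricter in the simulation. Its noise was independent between pigs, with no litter effect. These shares therefore do not carry over to the reported fit. The number of arrays limits the precision.

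Members and gene lists were chosen with earlier results of these data known. Named were the called members, the one of highest mean in each role group, the 3 largest differences not called, and ATOX1, CCS, SOD1, SOD2, GPX1, GPX4, CAT, PRDX2, TXN, NFE2L2, KEAP1, HMOX1 and NQO1. Probes above background are those of the scanner flag. For the fold of GPX7, dimmer DD values were raised to the lowest signal above background on their array. That fold takes no account of sampling error. Gene positions are RefSeq's for Sscrofa11.1, whose table held 51 of the 54 symbols. Probes were not aligned, and promoters were not analysed here. Alternatives were the normalization, background offset, filters, choice of probe, gene names, litter block, chip, brightness, erythroid level, variance model and each pig left out. The reading of names without regard to case and the fit with both covariates were added after the data were seen. Figures were drawn with matplotlib 3.10.9.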

Additional observations from a re-analysis of the deposited data

Results flagged for a closer look

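In the group of 10 DD pigs, 25 named members were examined for a pig far from the others, and 2 had one, where chance gives about 1 in 20. LW pigs, being 11, were not examined. TXN2 was at 7.88 in DD pig 11, next to 4.67 in the next pig, a gap of 0.75 of the range, and this was the DD array on which its probe was above background. Without that pig the difference of TXN2 fell from 0.47 to 0.09 (adjusted p = 0.602). TXNDC17 was at 12.90 in DD pig 16, next to 12.36, a gap of 0.594 of the range, and without that pig its difference was -0.33 with an adjusted p of 0.0335.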

How the results depend on the processing

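Of 51 members 8 were called, and of 39 other redox genes 6. The members called were 3 with no chip term, 5 without chip 1, 4 without chip 2, 0 without chip 3, 1 on litter means (CCS), 0 with the brightness, 0 with the erythroid level, 0 with both of them, and 16 when each probe was tested on its own and a member was counted for any probe. Of all kept probes, 21.7% were called one by one, and no count by gene was made over all features. Under the remaining alternatives 6 to 12 members were called, where 4670 to 8487 features were called in all. With 1 pig left out (pigs by their label numbers) the members called ranged from 4 (without LW 18) to 13 (without DD 6). Without DD 21 they were 5. Over all 35578 features, 2254 were called without LW 18, 11739 without DD 6 and 3095 without DD 21. CCS, PRDX4, GLRX2 and TXNL4B were called whichever pig was left out, HMOX1 in all but 1 fit (without LW 18), PRDX1 in all but 2 (without DD 21 or LW 18), MGST1 in all but 7 (without DD 1, 8, 10, 19 or 21 or LW 18 or 22) and GPX1 in 5 of 21 (without DD 6, 13 or 16 or LW 7 or 9). The calls were the same 8 genes with values recomputed from the scanner files, with names through accessions and with a trended, robust variance model. The other redox genes called were 10 with an offset of 50, 10 with the brightest probe, 0 with the brightness, 2 with the erythroid level, 0 with both, 0 without chip 3 and 2 on litter means, and 3 to 14 with 1 pig left out. The median difference of the members stayed from -0.09 to 0.02 in the fits without a chip, and from -0.09 to -0.02 with 1 pig left out. Scaling to the 75th percentile moved the median of all features to 0.06 and gave 5 higher and 4 lower calls among the members, where the reported values gave 3 and 5.

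Signs turned only in members that were not called, apart from HMOX1 within chip 1 (0.0194). With the brightness, the erythroid level and both as covariates, CAT was at -0.1233, -0.1221 and -0.1781, GLRX5 at -0.1963, -0.1378 and -0.2475, PRDX2 at -0.1409, -0.1012 and -0.1805, NQO1 at -0.593, -0.1772 and -0.5638, and GSS at 0.0731, 0.0759 and 0.0879. With the brightness and with both, KEAP1 was at 0.071 and 0.0551 and NFE2L2 at -0.031 and -0.0507. On 75th percentile scaling GSS was at 0.0201 and NQO1 at -0.0524, and without chip 3 they were at 0.0228 and -0.2517. GSTP1 was at 0.272 without chip 2, SOD2 at 0.0122 without chip 1 and at 0.0476 with its brightest probe, and GLRX5 at -0.0272 with names read without regard to case. With 1 pig left out GSS ranged from -0.0629 to 0.0083, GSTP1 from -0.3558 to 0.0594, KEAP1 from -0.1598 to 0.0093, NQO1 from -0.0704 to 0.1469 and SOD2 from -0.2138 to 0.0075. The cause of these changes was not tested. No paired analysis was possible because no replicate number is shared between the breeds.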
